A study of Mus musculus with 17 samples.

Results

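Ion channels are built from a pore-forming subunit, which carries the current, and auxiliary subunits, which set how much of the pore reaches the membrane and how it gates. In the colon, calcium channels of smooth muscle admit the calcium that drives contraction, potassium channels hold the muscle membrane away from that threshold, and sodium and potassium channels shape firing in enteric neurons. Potassium channels of the epithelium keep the driving force for chloride secretion. The genes described here are the voltage-gated calcium and sodium channel subunits and the potassium channel subunits, taken as every entry of the count table whose symbol begins with Kcn and a letter, with Cacna, Cacnb or Cacng, or with Scn and a digit. They numbered 139 of 23719 entries, and none of these symbols was repeated. Of the 139, 46 were placed in a list known mainly from neurons and 20 in a list known from smooth muscle and its neighbouring cells. Another 12 were placed in a list taken as epithelial, which includes Cacna1d and Kcnh3, genes not known from epithelium alone. The remaining 61 were in no list.

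Colon tissue RNA was sequenced from 9 Control and 8 GWI mice, all male C57BL/6 of 32 to 34 weeks. GWI, for Gulf War illness, names mice given pyridostigmine bromide (PB), an inhibitor of acetylcholinesterase, at 2 mg/kg in drinking water for 7 days and then left to recover for 21 days. Controls drank water, and the tissue of both groups was collected at day 30. Motility of the colon is the outcome for which the study was set up, and the comparison of GWI with Control asks which genes still differed after the recovery. Total counts lay between 16744096 and 20741212 per Control mouse, with a median of 17761682, and between 16293537 and 18389686 per GWI mouse. The channel subunits together took 0.0947% to 0.164% of the counts in Control mice, with a median of 0.134%, and 0.0955% to 0.126% in GWI mice, with a median of 0.12%. They are thus a scarce class of transcripts in this tissue.

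Most channel subunits that differed were lower in GWI colons. The few that were higher belonged to the epithelial list, and the lists were drawn up with earlier results of these data known. Of the 139 subunits, 90 passed the filter on low counts and 24 had an adjusted p under 0.05, by Benjamini-Hochberg over all 14146 tested genes in edgeR's quasi-likelihood test. Such genes are called higher or lower below. Calls were made for 26.8% of all tested genes, 13.4% higher and 13.5% lower. Among the channel subunits 21 were lower, which is 23.3% of those tested, and 3 were higher, which is 3.33%. The median log2 fold change of GWI over Control was -0.51 for the channel subunits and -0.06 for all tested genes, and 72 of the 90 subunits had a negative value. With upper-quartile scaling factors the calls over all genes moved from 1889 higher and 1903 lower to 1214 higher and 2992 lower, and those among the subunits to 2 higher and 28 lower. The count of 21 lower subunits fell to 13 in each of the fits without Control 6, without GWI 4 and without GWI 6, where the lower calls over all genes fell too, from 1903 to 1599, 1349 and 1336.

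The 3 lists did not share a direction. The neuronal list had 32 tested members, of which 8 were lower and 0 higher, and its median log2 fold change was -0.52. By an unadjusted p under 0.05 in edgeR, 12 were lower and 0 higher, and DESeq2 called 10 lower and 0 higher. Over all 14146 tested genes DESeq2 called 2444 lower and 2171 higher, more in each direction than edgeR. The count over all genes at the unadjusted threshold is not given here. All 20 members of the muscle list were tested, of which 7 were lower and 0 higher, with a median of -0.61. An unadjusted p under 0.05 was reached by 11 lower members and 1 higher member of the muscle list, and DESeq2 called 10 lower and 0 higher. In the epithelial list, 9 members were tested, 3 were higher and 1 was lower, with a median of 0.22. With upper-quartile factors 2 of its members were higher, Kcnk5 and Kcnk6, and 2 lower, Cacna1d and Kcne3. The 29 tested subunits of no list held 5 lower and 0 higher, with a median of -0.48. Their higher members numbered 0 at an unadjusted p under 0.05 in edgeR and 0 by DESeq2. The difference between the lists was not itself tested, and their members were chosen with earlier results of these data known.

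**Figure D1:**
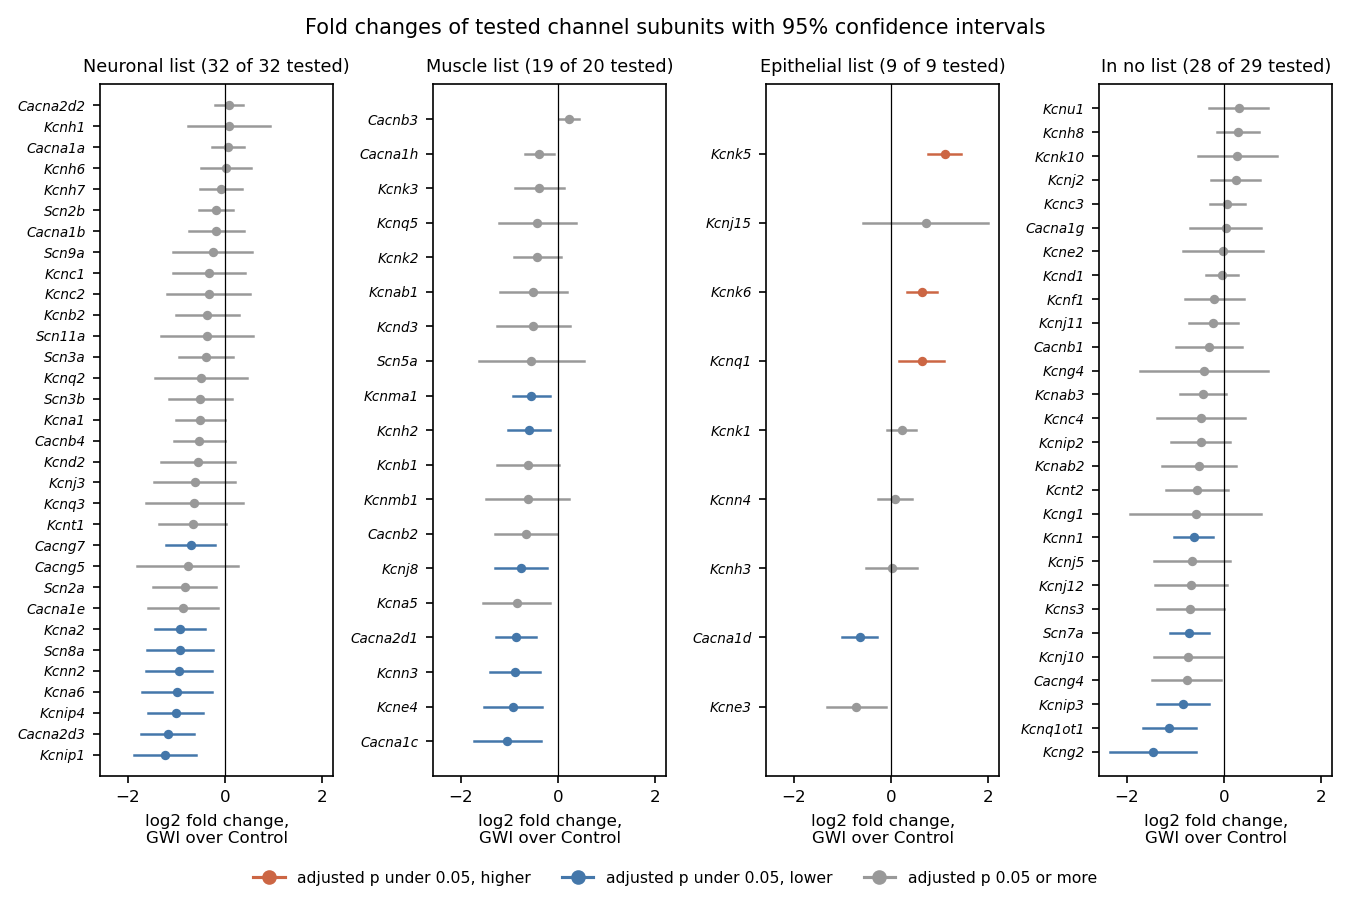
Log2 fold change of GWI over Control for 88 of the 90 tested channel subunits, each with its 95% confidence interval, in 4 panels for the neuronal, muscle and epithelial lists and for subunits of no list. Points left of the zero line are lower in GWI colons; the 3 subunits called higher, Kcnk5, Kcnk6 and Kcnq1, are all in the epithelial panel.

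The tissue pieces also differed in markers of their cell types. Smooth muscle markers summed to between 3690 and 23923 CPM (counts scaled to TMM-adjusted library sizes) in Control mice, with a median of 11584, and to between 3658 and 11832 CPM in GWI mice, with a median of 5142. All 10 of these markers were above 0, Myh11 was the most abundant, and 7 of 10 were lower, their median log2 fold change being -0.91. Enteric neuron markers summed to between 78.5 and 570 CPM in Control mice and between 105 and 377 CPM in GWI mice, led by Uchl1. Their log2 fold changes were negative for 10 of 10, with a median of -0.58, but 0 were called by edgeR, 0 had an unadjusted p under 0.05 in it, and 0 were called by DESeq2. Colon epithelium markers had 5 of 11 members higher and a median of 0.40, and their sum was 26896 to 45197 CPM in Control mice and 30206 to 47951 CPM in GWI mice, led by Car1. Controls 6 and 7 stood apart in small intestine markers, with mean log2 CPM of 4.06 and 5.33 against a Control median of 2.64 and a GWI range of 0.97 to 2.82. The site along the colon of each piece is not given in the sources used here. In a fit with the mean log2 CPM of small intestine markers as a covariate, 27 subunits were lower and 3 higher. Over all 14146 genes 1850 were lower and 1873 higher in that fit. It kept 20 of the 21 lower calls. Without Controls 6 and 7, left out after the data were seen, 11 subunits were lower and 2 higher, beside 1351 lower and 1426 higher of all 14139 genes tested in that fit. Without Controls 6, 7 and 9, the last having the smallest scaling factor, 23 were lower and 2 higher, beside 1782 and 1877 of 14205. In bulk tissue, fewer cells of a type and less RNA per cell cannot be told apart.

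Levels of the channel lists can be set beside these markers in each mouse. The mean log2 CPM of the muscle list lay between 2.82 and 4.32 in Control mice, with a median of 3.74, and between 2.72 and 3.76 in GWI mice, with a median of 2.92. Controls 7, 8 and 9 had muscle list means of 3.13, 2.82 and 3.00, inside the GWI range, and smooth muscle marker means of 8.94, 8.38 and 8.10, also inside the GWI range of 8.03 to 9.67. GWI 5 and GWI 8 had the highest muscle list means of their group, 3.76 and 3.72, and the highest smooth muscle marker means, 9.67 and 9.17. In the neuronal list, the mean log2 CPM was 0.10 to 1.49 in Control mice and 0.00 to 1.02 in GWI mice, and the same Controls 7, 8 and 9 were the 3 lowest of their group at 0.18, 0.10 and 0.44. Their enteric neuron marker means were 2.79, 3.22 and 3.02, against 3.21 to 4.98 in GWI mice. The neuronal list mean of Control 9 was above those of GWI 1, 2, 3 and 6. Those of Controls 7 and 8 were above that of GWI 2 and below those of GWI 1, 3 and 6, at 0.27, 0.19 and 0.21. The part of these markers in the lower channel calls was not tested. In a fit with the smooth muscle score as a covariate, the median log2 fold change of the 90 subunits was -0.01 in place of -0.51, and 4 were lower and 4 higher. Over all genes calls rose in that fit, to 2793 lower and 2531 higher of 14146. That score differs between the groups itself, so the covariate and the exposure share part of the same difference. Of the 24 subunits called without the covariate, 5 were also called with it: Kcnk5 and Kcnk6 higher, and Cacna2d1, Cacna2d3 and Kcnq1ot1 lower.

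**Figure D2:**
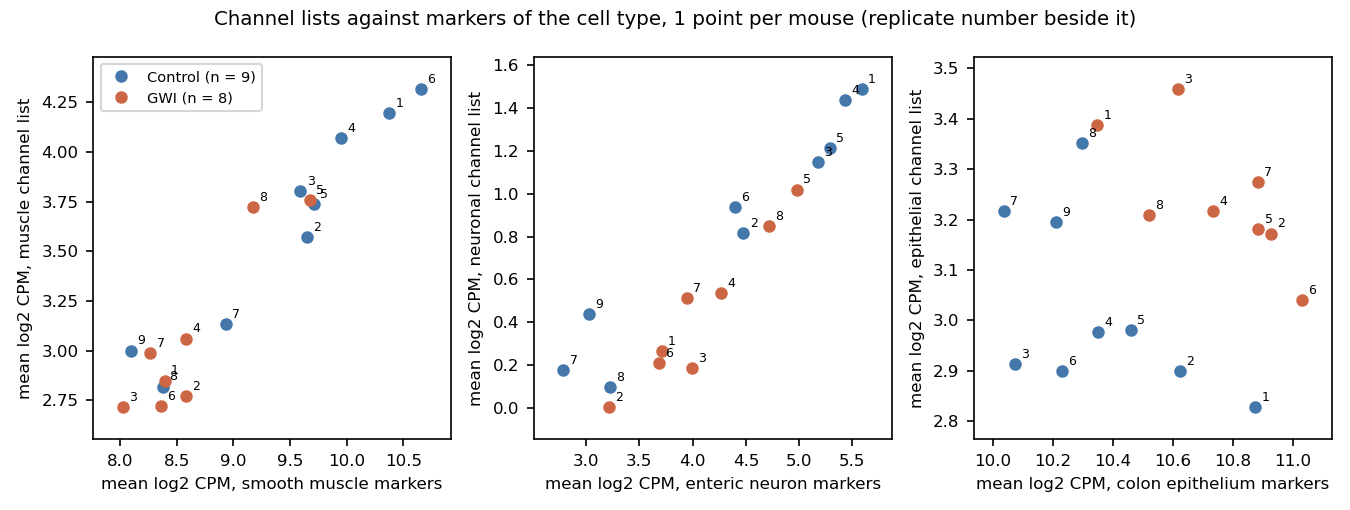
Mean log2 CPM of each channel list against that of markers of its cell type, 1 point per mouse with the replicate number beside it, for 9 Control and 8 GWI mice. Controls 2, 7, 8 and 9 lay inside both GWI ranges in the muscle panel; in the neuronal panel Controls 7 and 9 had markers below every GWI mouse.

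Kcnk5, a two-pore potassium channel that opens with alkaline pH and sits on the basolateral side of transporting epithelia, was the subunit with the smallest adjusted p. Its level was 31.1 to 75.9 CPM in Control mice, with a median of 45.2, and 68.0 to 125 CPM in GWI mice, with a median of 110. In 7 of 8 GWI mice it was above every Control, and the lowest GWI mouse, GWI 1, overlapped the highest Controls. The log2 fold change was 1.11 (SE 0.16, Benjamini-Hochberg adjusted p = 0.000448 in edgeR's quasi-likelihood test). It kept its call in all 27 other fits, with log2 fold changes between 1.02 and 1.22. Controls 7, 8 and 9 had Kcnk5 levels of 44.9, 47.4 and 45.2 CPM, close to the Control median. Controls 1 and 2, the highest of their group in Kcnk5, also had its highest mean log2 CPM of colon epithelium markers, 10.87 and 10.625, and GWI 1 had the lowest of the GWI mice, 10.35. By summed CPM the order was another: Control 1 had the lowest sum of its group, 26896, and GWI 5 the lowest of the GWI mice, 30206. The part of the epithelium in the Kcnk5 call was not tested. The gene lies on chromosome 14 at 20140057 to 20181809 of GRCm38, on the minus strand.

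Kcnk6, another two-pore channel, had 36.6 to 76.9 CPM in Control mice, with a median of 48.4, and 59.5 to 97.6 CPM in GWI mice, with a median of 82.2. Its groups overlapped, with 5 of 8 GWI mice above every Control and 7 of 9 Controls below every GWI mouse. Controls 7, 8 and 9 had the 3 highest Kcnk6 levels of their group, 76.9, 73.6 and 58.3 CPM, the first 2 of them inside the GWI range. Kcnk6 was higher by a log2 fold change of 0.64 (SE 0.15, Benjamini-Hochberg adjusted p = 0.00574 in edgeR's quasi-likelihood test), and its call held in all 27 other fits. Kcnk1, the most abundant two-pore channel per kb of exon, was not called, at 50.7 CPM per kb in Control and 58.9 in GWI mice. Its log2 fold change was 0.22 (SE 0.14) and became negative, at -0.06, with the smooth muscle score as a covariate. In Controls 7, 8 and 9 Kcnk1 was at 150, 151 and 153 CPM, above the other Controls and every GWI mouse. About 8.01% of the exon length of Kcnk1 is shared with an antisense gene, Gm45875, and the strand setting of the counting is not given in the sources used here. Together, 2 of the 6 tested two-pore subunits were higher and 0 lower, with 0 lower also at an unadjusted p under 0.05 in edgeR and by DESeq2.

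Kcnq1 and Kcne3 form 1 channel of the crypt epithelium, in which the auxiliary subunit Kcne3 holds the Kcnq1 pore open for cAMP-driven chloride secretion. Kcnq1 was found at 29.3 to 79.2 CPM in Control mice, with a median of 63.5, and at 42.9 to 139 CPM in GWI mice, with a median of 86.2. The groups overlapped, 5 of 8 GWI mice being above every Control. Its log2 fold change was 0.63 (SE 0.22, Benjamini-Hochberg adjusted p = 0.04 in edgeR's quasi-likelihood test). This call is weak: it was lost in 8 of 17 fits that each omitted a single mouse, called leave-one-out here (Controls 4 and 6 and GWI 1, 2, 3, 4, 6 and 7), where the adjusted p reached 0.0874. It was also lost in 6 of 10 further fits. Kcne3, the most abundant subunit per kb in Control mice at 96.2 CPM per kb, was not called. It had 71.5 to 323 CPM in Control mice, with a median of 126, and 83.9 to 127 CPM in GWI mice, with a median of 105. Controls 7, 8 and 9 stood apart at 272, 316 and 323 CPM, while the other 6 Controls lay within or just below the GWI range. The fitted log2 fold change was -0.71 (SE 0.29, Benjamini-Hochberg adjusted p = 0.071 in edgeR's quasi-likelihood test). Kcne3 was called lower with upper-quartile factors, with DESeq2, with the smooth muscle covariate, and without Control 1 or Control 4. Over the 27 other fits its adjusted p ranged from 0.000314 to 0.393.

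Read within each mouse, the balance of the 2 subunits moved toward the pore. The log2 ratio of Kcne3 to Kcnq1 counts averaged 1.42 ± 0.93 (SD, n = 9) in Control mice, from 0.50 to 3.46, and 0.28 ± 0.33 (SD, n = 8) in GWI mice, from -0.13 to 0.99. In 7 of 8 GWI mice the ratio was below that of every Control, and GWI 5 was the exception. The difference was -1.14 (two-sided exact permutation test over 24310 divisions of the mice, p = 0.00123, adjusted p = 0.00864 over 7 ratios). Without Controls 7, 8 and 9, left out after the data were seen, it was -0.62 and the adjusted p remained under 0.05, at 0.028. A ratio of 2 genes in 1 library does not depend on library scaling. The gene Kcne3 lies on chromosome 7 at 100176502 to 100184869, and Kcnq1 on the same chromosome at 143106362 to 143427042, both on the plus strand.

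The other epithelial subunits gave 1 lower call. Cacna1d, the pore of an L-type calcium channel, had 4.00 to 7.39 CPM in Control mice, with a median of 5.39, and 2.58 to 5.49 CPM in GWI mice, with a median of 3.30. In 6 of 8 GWI mice it was below every Control, and GWI 5 and GWI 8 were within the Control range. Its log2 fold change was -0.65 (SE 0.17, Benjamini-Hochberg adjusted p = 0.012 in edgeR's quasi-likelihood test). About 4.67% of its exon length lies over Chdh on the opposite strand. Kcnn4, the calcium-activated potassium channel of colonic crypts, had a log2 fold change of 0.07 (SE 0.17), which turned negative with upper-quartile factors, with the smooth muscle covariate and without GWI 1. Levels of Kcnj1, Kcnj13 and Kcnj16, inward rectifiers known from kidney and other epithelia, were too low to test, with at most 8 counts in a mouse.

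**Figure D3:**
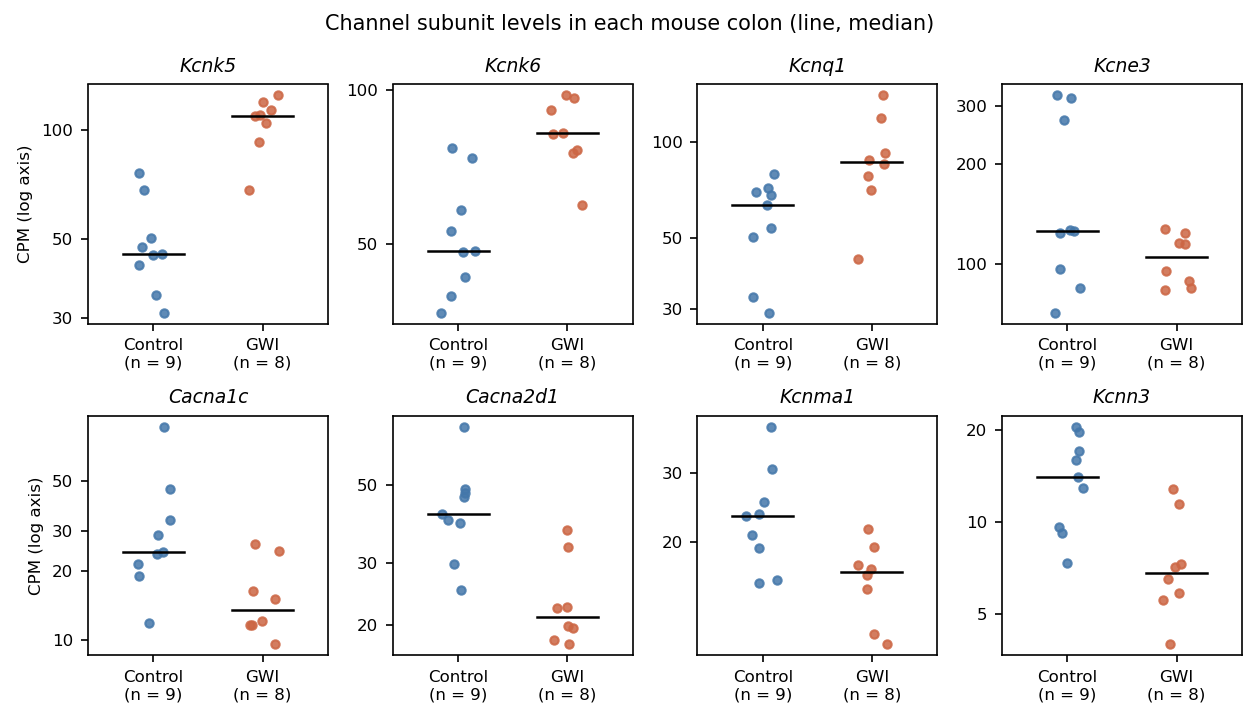
Level of 8 channel subunits in each mouse, in CPM on a log axis, for 9 Control and 8 GWI colons, with a line at the group median. The upper row shows epithelial subunits and the lower row muscle subunits; for Kcnk5, 7 of 8 GWI mice lie above every Control, and 3 Controls stand apart for Kcne3.

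In the muscle list the lower calls covered the pore and a large auxiliary subunit of the main calcium channel. Cacna1c, the L-type pore that carries calcium into smooth muscle for contraction, had 11.8 to 86.7 CPM in Control mice, with a median of 24.4, and 9.55 to 26.5 CPM in GWI mice, with a median of 13.5. The groups overlapped, with 4 of 9 Controls above every GWI mouse, and Control 6 alone had the value of 86.7 CPM. Its log2 fold change was -1.05 (SE 0.33, Benjamini-Hochberg adjusted p = 0.0261 in edgeR's quasi-likelihood test). The call was lost without Control 6 and without GWI 3, GWI 4 or GWI 6, where the adjusted p reached 0.0535. Cacna2d1, the extracellular subunit that brings calcium channels to the membrane and binds gabapentin, had 25.1 to 73.4 CPM in Control mice, with a median of 41.5, and 17.6 to 37.2 CPM in GWI mice, with a median of 21.0. In 6 of 8 GWI mice it was below every Control, and Controls 7 and 8 were the 2 that reached into the GWI range. It was lower by a log2 fold change of -0.87 (SE 0.20, Benjamini-Hochberg adjusted p = 0.00549 in edgeR's quasi-likelihood test), and its call held in all 27 other fits.

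Cytosolic beta subunits, which chaperone the calcium channel pore and speed its opening, were not called. Cacnb3 was the most abundant of them per kb, at 13.7 CPM per kb in Control and 16.03 in GWI mice, and was the only member of the muscle list with a positive log2 fold change, 0.23 (SE 0.10). It passed the threshold without GWI 5. Cacnb2 had a log2 fold change of -0.66 (SE 0.31), which was 0.01 with the smooth muscle covariate. Set against the pore in the same mouse, Cacnb3 was higher in GWI colons: the log2 ratio of Cacnb3 to Cacna1c was 0.95 ± 0.80 (SD, n = 9) in Control and 2.09 ± 0.64 (SD, n = 8) in GWI mice. That difference was 1.13 (two-sided exact permutation test, p = 0.0051, adjusted p = 0.0179 over 7 ratios), and the groups overlapped, with 3 of 8 GWI mice above every Control. Without Controls 6, 7 and 9 it was 0.95 and the adjusted p was 0.0734. Control 6, with the highest smooth muscle marker mean, 10.66, had the lowest ratio, -0.61. GWI 3, with the lowest marker mean, 8.03, had the highest ratio, 2.98, but Control 9, at a marker mean of 8.10, had 1.13. The part of smooth muscle markers in this ratio was not tested. The ratio of Cacnb2 to Cacna1c differed by 0.32 (two-sided exact permutation test, p = 0.0137, adjusted p = 0.0321 over 7 ratios). In 9 of the 17 leave-one-out fits (Controls 1, 4, 5, 6 and 7 and GWI 1, 3, 5 and 8) its adjusted p was above 0.05, up to 0.0602. The ratio of Cacna2d1 to Cacna1c differed by 0.05 (two-sided exact permutation test, adjusted p = 0.798 over 7 ratios) and changed sign without Control 1 or Control 6. Cacna1h, a T-type pore and the most abundant calcium pore per kb, had a log2 fold change of -0.39 (SE 0.14, Benjamini-Hochberg adjusted p = 0.0541 in edgeR's quasi-likelihood test). It was called lower with RLE or upper-quartile factors, with DESeq2 and with at least 10 counts in each mouse. The same held without Control 8, Control 9, GWI 1 or GWI 5.

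Potassium channels of muscle and neighbouring cells gave the other 5 lower calls of the list. Kcnma1, the pore of the large-conductance channel that opens with calcium and voltage, had 15.7 to 39.3 CPM in Control mice, with a median of 23.3, and 11.0 to 21.6 CPM in GWI mice, with a median of 16.8. In 5 of 9 Controls it was above every GWI mouse. About 5.98% of its exon length lies over 4930519K11Rik on the opposite strand. The log2 fold change was -0.55 (SE 0.18, Benjamini-Hochberg adjusted p = 0.0305 in edgeR's quasi-likelihood test), lost without Control 6, GWI 2, GWI 6 or GWI 7, where the adjusted p reached 0.0644. Its smooth muscle auxiliary subunit Kcnmb1, which raises the calcium sensitivity of that pore, was not called, at a log2 fold change of -0.63 (SE 0.41). GWI 5 had 26.4 CPM of Kcnmb1, against a GWI median of 5.90, and without GWI 5 the subunit was called lower at -1.12 (Benjamini-Hochberg adjusted p = 0.0238 in edgeR's quasi-likelihood test). Over the 27 other fits that adjusted p ranged from 0.0238 to 0.495. The log2 ratio of Kcnmb1 to Kcnma1 differed by -0.18 (two-sided exact permutation test, adjusted p = 0.736 over 7 ratios).

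Kcnj8, the pore of the ATP-sensitive channel of muscle and pericytes, was the most abundant inward rectifier per kb. It had 16.5 to 79.3 CPM in Control mice, with a median of 40.4, and 14.2 to 39.4 CPM in GWI mice, with a median of 20.6. Its groups overlapped, with 5 of 9 Controls above every GWI mouse. The fitted log2 fold change was -0.76 (SE 0.26, Benjamini-Hochberg adjusted p = 0.0375 in edgeR's quasi-likelihood test), and 10 of the 17 leave-one-out fits lost the call, at adjusted p up to 0.0774. Those mice were Controls 2, 3, 4 and 6 and GWI 1, 2, 3, 4, 6 and 7. Abcc9, the sulfonylurea receptor that completes this channel, was lower too, at -0.95 (SE 0.34), a call lost in 11 of the 17 fits (Controls 1, 2, 3, 4 and 6 and GWI 1, 2, 3, 4, 6 and 7), and the ratio of Kcnj8 to Abcc9 differed by 0.06 (two-sided exact permutation test, adjusted p = 0.736 over 7 ratios). Markers of endothelium and pericytes, where both genes are also expressed, had 3 of 7 members lower and summed to 562 to 1826 CPM in Control and 302 to 738 CPM in GWI mice, led by Rgs5. Their part in the lower Kcnj8 was not tested.

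Among the remaining muscle subunits, Kcnn3, a small-conductance calcium-activated channel that relays inhibitory signals from enteric nerves, had 7.32 to 20.5 CPM in Control mice, with a median of 14.0, and 3.97 to 12.8 CPM in GWI mice, with a median of 6.81. It was below every Control in 6 of 8 GWI mice, GWI 5 and GWI 8 being the exceptions. Its log2 fold change was -0.89 (SE 0.24, Benjamini-Hochberg adjusted p = 0.0138 in edgeR's quasi-likelihood test), kept whichever of the 17 mice was left out. Kcne4, an auxiliary subunit that restrains voltage-gated potassium channels, was lower at -0.93 (SE 0.28). It kept its call in the same 17 fits. That call was lost with the replicate block, with the smooth muscle covariate, without Controls 6 and 7 and without Controls 6, 7 and 9. Kcnh2, the pore of the ERG channel, was lower at -0.60 (SE 0.21) and lost its call in 11 of the 17 fits (without Control 1, 3, 4, 5 or 6, or GWI 1, 2, 3, 4, 6 or 7), at adjusted p up to 0.0787 by Benjamini-Hochberg in edgeR's quasi-likelihood test. Kcnq5, a pore that helps to hold the resting potential of smooth muscle, had a log2 fold change of -0.43 (SE 0.38) and was not called. For the list as a whole, the 7 lower calls fell to 3 without Control 6 or GWI 6 and to 4 without GWI 2, 3, 4 or 7. Without GWI 5 they rose to 11, with Cacnb3 called higher. With the smooth muscle covariate 1 of the 7, Cacna2d1, was called lower.

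The neuronal list had its smallest adjusted p in an auxiliary calcium channel subunit. Cacna2d3, an extracellular subunit that supports calcium channels at synapses, had 1.56 to 5.98 CPM in Control mice, with a median of 3.85, and 0.92 to 2.91 CPM in GWI mice, with a median of 1.54. These levels rest on 30 to 135 counts in each Control and 16 to 49 in each GWI mouse, and 6 of 9 Controls were above every GWI mouse. The log2 fold change was -1.18 (SE 0.26, Benjamini-Hochberg adjusted p = 0.00449 in edgeR's quasi-likelihood test), and the call held in all 27 other fits. Cacna2d2, of the same class, had a log2 fold change of 0.09 (SE 0.14). Cacng7, a gamma subunit that also accompanies AMPA-type glutamate receptors, was lower at -0.71 (SE 0.24) and lost its call in 12 of the 17 leave-one-out fits, without Controls 1 to 6 and without GWI 1, 2, 3, 4, 6 or 7.

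Cytosolic calcium sensors of the Kcnip family, which bind A-type potassium channels and tune their inactivation, were lower in 3 of the 4 tested cases. Kcnip1 had 5.92 to 33.9 CPM in Control mice, with a median of 14.8, and 4.73 to 13.6 CPM in GWI mice, with a median of 6.74. In 6 of 9 Controls it was above every GWI mouse. The fitted log2 fold change was -1.24 (SE 0.31, Benjamini-Hochberg adjusted p = 0.0086 in edgeR's quasi-likelihood test), kept whichever of the 17 mice was left out. Kcnip4, at 5.19 to 17.1 CPM in Control and 3.11 to 11.4 CPM in GWI mice, was lower by -1.01 (SE 0.27) and also kept its call in those fits. About 4.63% of its exon length lies over 5730480H06Rik on the opposite strand. Kcnip3, which is in no list, was lower by -0.84 (SE 0.25), while Kcnip2 had -0.48 (SE 0.29). Kcnip3 lost its call with the replicate block, with the smooth muscle covariate, without Controls 6 and 7 and without Controls 6, 7 and 9, at adjusted p up to 0.082.

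Axonal potassium and sodium channels supplied most of the rest. Kcna2, the Kv1.2 pore found along axons, had 4.67 to 16.3 CPM in Control mice, with a median of 10.8, and 2.74 to 9.16 CPM in GWI mice, with a median of 5.91. Control 8, at 4.67 CPM, was far below the other Controls, and 7 of 9 Controls were above every GWI mouse. Its log2 fold change was -0.93 (SE 0.24, Benjamini-Hochberg adjusted p = 0.0111 in edgeR's quasi-likelihood test), kept whichever of the 17 mice was left out. Kcna6, the Kv1.6 pore, was lower by -0.99 (SE 0.35), but 39.6% of its exon length is shared with an antisense gene, Gm26673, and its counts cannot be assigned to 1 strand. That call was lost in 11 of the 17 fits, without Controls 2 to 6 and without GWI 1, 2, 3, 4, 6 or 7. Scn8a, a fast sodium channel of axon initial segments, was lower by -0.93 (SE 0.32) on only 7 to 29 counts per Control and 4 to 17 per GWI mouse, a depth at which counting error is a large part of the spread. It lost its call in 12 of the 17 fits, without Controls 1 to 6 and without GWI 1, 2, 3, 4, 6 or 7.

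Kcnn2, a small-conductance calcium-activated channel behind the afterhyperpolarization of neurons, was lower by -0.95 (SE 0.32). Its call was lost in 8 of the 17 fits, without Control 2, 4 or 6 and without GWI 1, 3, 4, 6 or 7. About 4.33% and 3.8% of the exon length of Kcnn2 lie over AC121957.1 and A330093E20Rik on the opposite strand. Scn2b, a cell-adhesion auxiliary subunit of sodium channels and 1 of the 4 most abundant of the list per kb, had a log2 fold change of -0.18 (SE 0.17) and was not called. The 8 lower calls of the neuronal list fell to 4 without Control 2, 4 or 6 and without GWI 1, 3, 4, 6 or 7, and to 5 without Control 3, Control 5 or GWI 2. With the smooth muscle covariate 1 of the 8, Cacna2d3, was called lower and 1 subunit, Cacna1a, was called higher. Enteric glia markers, which share the same tissue layers, had 2 of 7 tested members lower, with a median of -0.74, and summed to 50.5 to 176 CPM in Control and 52.0 to 105 CPM in GWI mice, led by Cryab. The part of neuron and glia markers in these calls was not tested.

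Outside the lists, Scn7a was the most abundant sodium channel pore per kb, at 5.13 CPM per kb in Control and 3.12 in GWI mice. This atypical member of the family senses extracellular sodium and is known from glia and nerve sheaths. It had 22.3 to 52.9 CPM in Control mice, with a median of 40.4, and 13.3 to 36.7 CPM in GWI mice, with a median of 20.7. In 5 of 8 GWI mice it was below every Control. The log2 fold change was -0.72 (SE 0.19, Benjamini-Hochberg adjusted p = 0.0116 in edgeR's quasi-likelihood test), kept whichever of the 17 mice was left out. Kcnn1, another small-conductance calcium-activated channel, was lower by -0.63 (SE 0.19) on 16 to 57 counts per Control and 15 to 29 per GWI mouse. It lost its call without GWI 4, with the replicate block, with the smooth muscle covariate and without Controls 6 and 7. Kcng2, a silent subunit that modifies other voltage-gated pores, was lower by -1.46 (SE 0.42) on 4 to 60 counts per Control and 2 to 15 per GWI mouse. About 9.1% of its exon length lies over D330025C20Rik on the opposite strand.

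Among the 21 lower subunits, the noncoding member Kcnq1ot1 had the most mice outside the range of the other group. It is transcribed from the paternal chromosome against the direction of Kcnq1, inside that gene, and takes part in silencing an imprinted cluster. Its level was 8.36 to 15.1 CPM in Control mice, with a median of 12.1, and 2.25 to 9.16 CPM in GWI mice, with a median of 5.21. In 8 of 9 Controls it was above every GWI mouse, and Control 8 was the exception. The fitted log2 fold change was -1.13 (SE 0.26, Benjamini-Hochberg adjusted p = 0.00593 in edgeR's quasi-likelihood test), and the call held in all 27 other fits. The transcript covers 143203458 to 143296549 of chromosome 7 on the minus strand. It shares 121 exon bases with Kcnq1, which is 2.96% of the exon length of Kcnq1, and lies within the span of that gene. With the strand setting not given, reads of unspliced Kcnq1 RNA in that stretch could be counted as Kcnq1ot1. The 2 genes were called in opposite directions.

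By class of protein, the lower calls were 4 of 8 tested calcium- or sodium-activated potassium pores, 2 of 3 calcium alpha2delta subunits, 1 of 3 calcium gamma subunits, 4 of 11 potassium auxiliary subunits, 2 of 7 calcium pores and 2 of 7 sodium pores. Voltage-gated potassium subunits, pores and silent ones such as Kcng2 together, had 4 of 29 lower and 1 higher. Inward rectifiers had 1 of 8 lower, beside 13.5% lower among all tested genes. Calcium beta subunits had 0 called of 4. At an unadjusted p under 0.05 in edgeR they had 2 lower and 1 higher, and DESeq2 called 0 of them lower. The auxiliary subunits of potassium channels were negative in 11 of 11, at a median log2 fold change of -0.63. That of the two-pore channels was 0.25.

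The 49 subunits that did not pass the filter had at most 38 counts in any mouse, and 1 of them, Kcnk18, had 0 counts in every mouse. They included Kcnmb4, the neuronal auxiliary subunit of the large-conductance channel, with 1 to 7 counts per Control and 0 to 4 per GWI mouse. Scn10a, a sodium pore of sensory neurons, had 0 to 2 counts per Control and 0 to 1 per GWI mouse, so a difference was not detectable at this depth. Subunits of skeletal muscle were also near 0: Scn4a had at most 3 counts, Cacna1s at most 3 and Cacng1 at most 2, although the mean log2 CPM of skeletal muscle markers was higher in GWI 1, GWI 2 and GWI 8 and in Control 5 than in the other mice. Their summed CPM was 43.8, 48.8 and 52.0 in those GWI mice, the 3 highest of their group, and below the Control median of 58.4.

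Of 37 genes that work with these channels but lie outside the naming rule, 32 were tested, 5 were lower and 3 higher, and their median log2 fold change was -0.40. That is 15.6% lower and 9.38% higher, beside 13.5% and 13.4% of all tested genes, whose median was -0.06. The lower ones were Ryr3, a calcium release channel (-1.09, SE 0.25), Stac, an adaptor of L-type channels (-0.997, SE 0.29), Abcc9, and Dpp10, an auxiliary protein of A-type potassium channels (-0.88, SE 0.24). Gem, a small GTPase that curbs calcium channels, was lower by -0.74 (SE 0.23). Higher were Hcn2, a pacemaker channel (0.73, SE 0.20), Cachd1, a relative of the alpha2delta subunits (0.51, SE 0.11), and Fgf11, a relative of the factors that bind sodium channels (0.48, SE 0.16). Ryr3, Hcn2 and Cachd1 kept their calls in all 27 other fits. Stac lost its call with the smooth muscle covariate, Dpp10 with the replicate block and Gem with either. Abcc9 lost it in 11 of the 17 leave-one-out fits, given above, and in 6 of the 10 others, at adjusted p up to 0.745. Fgf11 lost it in 5 of the 17 (Controls 7 and 8 and GWI 4, 5 and 7) and in 6 of the 10, at adjusted p up to 0.0871. The chloride channel gene Ano1, which drives the pacemaker activity of interstitial cells, had a log2 fold change of -0.41 (SE 0.34). Interstitial cell markers had 0 of 7 called by edgeR, with 1 lower at an unadjusted p under 0.05 and 1 lower by DESeq2, and a median of -0.04. Their sums, 212 to 427 CPM in Control and 207 to 347 CPM in GWI mice, were led by Kit.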

How the data were processed

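Poly(A) RNA of 17 colons was sequenced. The authors used Trimmomatic 0.36 for trimming, STAR 2.5.2b for alignment to GRCm38 and featureCounts for uniquely assigned reads per gene, and deposited raw counts without normalization. The annotation release and strand setting are not given in the sources used here. All count columns matched a mouse. Raw counts were fitted with edgeR 4.0.16 (filterByExpr, TMM factors, robust quasi-likelihood test, condition only) in R 4.3.3. P-values were Benjamini-Hochberg adjusted over all tested genes with a threshold of 0.05. Standard errors are the log2 fold change over the square root of F. The fit was tested on simulated data. CPM used TMM-scaled library sizes, and list means a prior count of 2. Positions, exon overlaps and union exon lengths came from GENCODE M21. Ratios used counts plus 0.5. P-values treat the labelled mice as separate samples. Some count columns share a number or letter that the labels do not explain, so no cage or litter term was fitted, and a shared origin would bear on every p-value. In these data technical noise is at least the counting error.

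Alternatives were RLE and upper-quartile factors, DESeq2 1.42.0 without independent filtering, no filter, the replicate number as a block, at least 10 counts in each mouse, smooth muscle or small intestine scores as covariates, each mouse left out, a ratio pseudocount of 5, and an unadjusted p under 0.05 with an absolute log2 fold change over 1. Fits without several Controls were added after seeing the data. Named were all called subunits and partners, the most abundant subunit per kb of each class, the 4 most abundant of each list and the genes of each ratio. Cacna2d2, Kcnip2, Kcnh3, Scn10a, Kcnk18, Ano1, the untested epithelial and skeletal subunits and Cacna1a were named after their values were seen. The ratio of Kcnmb4 to Kcnma1 was left out because Kcnmb4 failed the filter. Values of 2 tested subunits and of 1 of the 7 ratios are not reported here, though all stayed in the tests and adjustments. The members and lists were chosen with earlier results of these data known.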

Additional observations from a re-analysis of the deposited data

Results flagged for a closer look

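In 6 of the 104 groups of mice examined (named subunits on a log2 scale, list means and ratios), the highest or lowest mouse lay far from the rest of its group. Chance gives about 1 in 20 groups. Kcna2 was low in Control 8, at 4.67 CPM, and Kcnmb1 was high in GWI 5, at 26.4 CPM. Ratios within a complex were high in single mice: Kcne3 to Kcnq1 in GWI 5, at a log2 ratio of 0.99, and Kcnmb1 to Kcnma1 in Control 1, at 0.0917. Among marker lists, the mean log2 CPM of skeletal muscle was high in Control 5, at 0.96, and that of the small intestine was low in GWI 5, at 0.97. GWI 5 was thus the mouse marked most often, in 3 of the 6 cases.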

How the results depend on the processing

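Kcnk5, Kcnk6, Cacna2d1, Cacna2d3 and Kcnq1ot1 kept their calls in all 27 other fits. Over the 41 named genes, 1105 values from other fits gave 915 with the same direction and side of the threshold, 168 no longer past it, 15 newly past it and 7 of opposite sign. The opposite signs were Kcnn4 (-0.0259 with upper-quartile factors, -0.0172 to 0.151 leaving out 1 mouse, negative without GWI 1, and -0.116 with the smooth muscle covariate) and, with that covariate, Cacnb2 (0.0148), Kcnk1 (-0.0575), Kcnmb1 (0.235) and Kcnq5 (0.367).

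With the smooth muscle covariate the lower calls were 4 of all subunits, 1 neuronal, 1 muscle and 3 partner genes, with 1 neuronal and 5 partner genes higher. Without Controls 6 and 7, the lower calls were 11 of all subunits, 5 neuronal and 2 muscle. An unadjusted p under 0.05 with an absolute log2 fold change over 1 left 6 lower and 1 higher, without a count over all genes beside them. DESeq2 and upper-quartile factors each called 2 epithelial subunits lower, and the latter 8 partner genes. Leaving out 1 mouse gave 13 to 30 lower and 2 to 4 higher subunits, 4 to 11 lower and 0 to 0 higher in the neuronal list, 3 to 11 and 0 to 1 in the muscle list, 1 to 2 and 2 to 3 in the epithelial list, and 4 to 7 and 2 to 5 among partners. The causes of these changes were not tested.

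Same-numbered mice had correlations of -0.53 to 0.11 in their deviations from the group mean over the tested genes. This check cannot tell whether the numbers mark a shared cage, litter or processing day. As a replicate block, the number took the lower calls to 6 of all subunits, 2 neuronal, 1 muscle and 2 partner genes, beside 826 of all 14146 genes.

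Leaving out 1 mouse, the log2 ratio differences were -1.26 to -0.89 for Kcne3 to Kcnq1, 0.94 to 1.30 for Cacnb3 to Cacna1c, 0.26 to 0.38 for Cacnb2 to Cacna1c and -0.0526 to 0.138 for Cacna2d1 to Cacna1c, the last negative without Control 1 (-0.0134) or Control 6 (-0.0526). For Kcnmb1 to Kcnma1 they were -0.43 to -0.04 and for Kcnj8 to Abcc9 0.01 to 0.14. Without Controls 6 and 7, Cacna2d1 to Cacna1c was -0.0819, Kcnj8 to Abcc9 -4.3e-06 and Cacnb2 to Cacna1c 0.27, no longer past the threshold. Without Controls 6, 7 and 9, Cacnb2 to Cacna1c was 0.29 and Cacnb3 to Cacna1c 0.95, both no longer past it. Scn8a, Kcng2 and Kcnn1 rest on few counts, and the part of depth in their calls was not tested.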
